A study of Mus musculus with 2 samples.

Results

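The conjugation enzymes and carboxylesterases described here are 86 of the 45777 genes in the read count table, taken as protein-coding genes whose symbol starts with Ugt, Sult, Ces or Mgst and a digit, or with Gst, a class letter (a, k, m, o, p, t or z) and a digit. They comprised 21 UDP-glycosyltransferase genes (UGT), 21 cytosolic sulfotransferase genes (SULT), 19 carboxylesterase genes (CES), 22 glutathione S-transferase genes (GST) and 3 microsomal glutathione S-transferase genes (MGST). The UGT class includes Ugt3a1, Ugt3a2 and Ugt8a, so its sums are not those of glucuronidating enzymes alone. RNA was sequenced from whole kidneys of mice with a conditional knockout of Inmt in the renal proximal tubule (CKO, 1 library) and from whole kidneys of control mice (1 library). Both groups ate standard chow and were not treated, and the labels state neither strain, age nor sex, nor the Cre driver, the deleted part of Inmt, the alleles carried by the controls, or the number of animals behind a library. The comparison asks how these genes differ in the kidney when Inmt, an N-methyltransferase of small amines, is deleted in the proximal tubule.

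The CKO library held 38136616 counted reads and the control library 33618076. Levels are CPM, reads per 1e6 counted reads after scaling by the trimmed mean of M-values (TMM), and a gene with at least 1 CPM in either library was called expressed. A log2 ratio here is log2(CPM + 0.5) in the CKO library minus that in the control, and the added 0.5 draws genes with few reads towards 0. Inmt had 5283 reads in the CKO library and 17678 in the control library, 4.73-fold lower in CKO (95% interval 4.59 to 4.88). Intervals given here are exact 95% intervals of counting error, which leave out variation between animals. With 1 library per group no difference has a replicate check, no test across animals was possible, and fewer cells of a type cannot be told apart from less RNA per cell.

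These enzymes carry out the conjugating and ester-cleaving steps of the metabolism of drugs, steroids, bilirubin and lipids. UGT enzymes join a sugar, usually glucuronic acid from UDP-glucuronate, to their substrate, SULT enzymes a sulfate group from the donor PAPS, and GST and MGST enzymes glutathione, while carboxylesterases split esters, amides and some acylglycerols. Conjugation makes most substrates more water soluble and ready for export, and the proximal tubule is the main kidney site of this chemistry.

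Of the 86 genes, 48 were expressed, and these 48 reached 1 CPM in both libraries. A further 13 had reads but stayed under 1 CPM, and 25 had no read in either library, where a floor of 3 reads per library is 0.0705 CPM in the CKO library and 0.0996 CPM in the control, and the exact two-sided 95% Poisson limit of a count of 0 is 0.0866 CPM in the CKO library and 0.123 CPM in the control. Among the 48, 8 (16.7%) were lower by 2-fold or more in the CKO library, against 1.66% of all 15129 expressed genes. Higher by 2-fold or more were 5 (10.4%), against 10.3% of all expressed genes, so this share was near the background. The 8 lower genes were Ugt2b38, Ugt2b5, Ugt3a2, Ugt8a, Ces1e, Ces1f, Ces2b and Ces2c, and the 5 higher genes were Ugt1a2, Ugt1a10, Ugt1a1, Ces2e and Mgst1. With total counts as the scale, 3 genes were lower past this limit and 6 higher, and Ugt2b5, Ugt3a2, Ugt8a, Ces1e and Ces1f fell short of it with their ratios still below 0. Closest to the limit inside it were Mgst1 at 1.02, Ugt1a1 at 1.05 and Ugt3a2 at -1.06, and closest outside it were Ugt3a1 at -0.92, Ugt2b37 at -0.90 and Gstz1 at -0.72. With a limit of 1.5-fold, 17 were lower and 9 higher, against 6.85% and 19.3% of all expressed genes. Of the 48, 31 had a log2 ratio below 0, against 49.3% of all expressed genes. The median log2 ratio of the 48 was -0.22, where that of all expressed genes was 0.01. With total counts as the scale, the median of all expressed genes moved to 0.32 and that of the 48 to 0.11, which left the 48 lower than all genes by 0.21, against 0.23 with TMM.

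**Figure D1:**
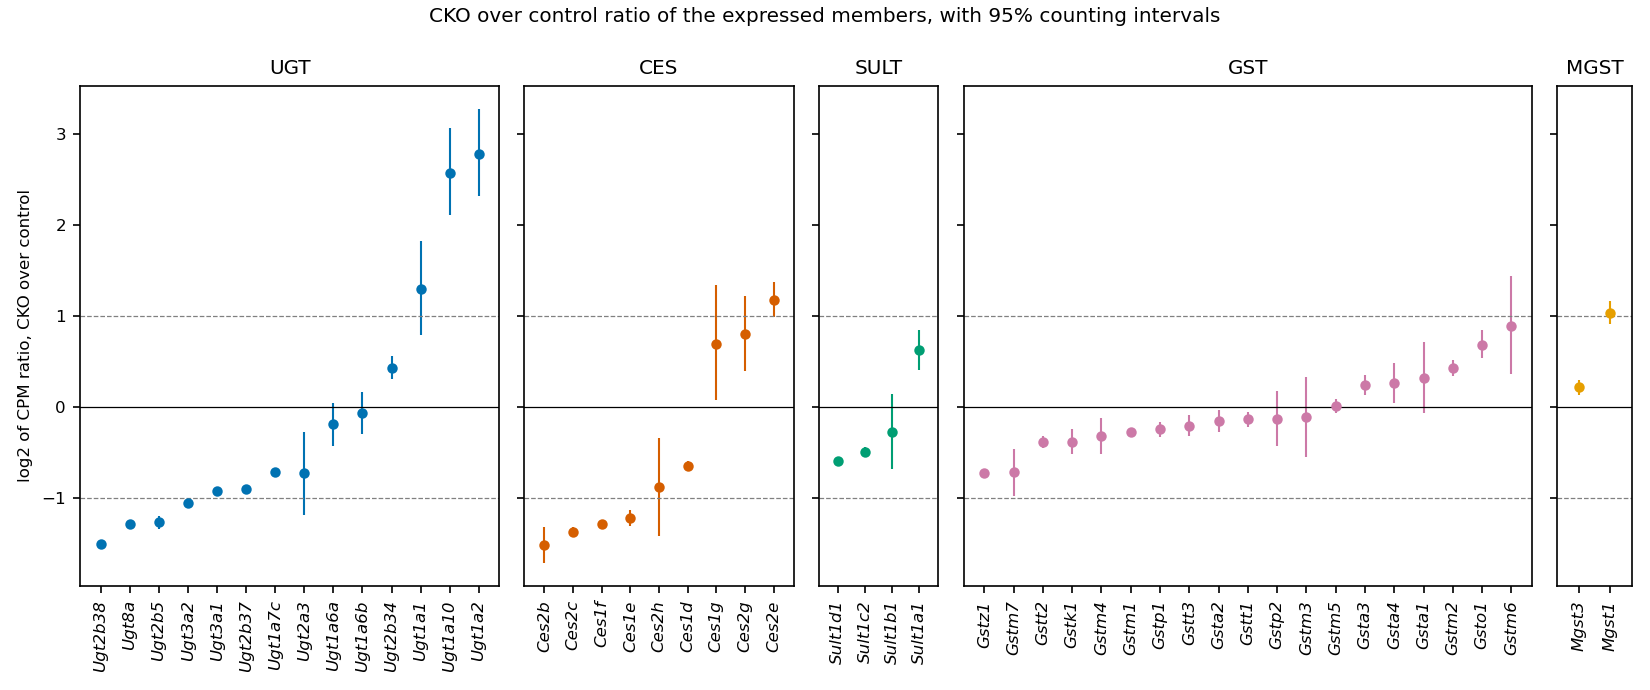
Log2 of the CPM ratio of CKO over control (vertical axis, no pseudocount) for the 48 expressed genes, in 1 panel per enzyme class, with bars for the 95% counting interval and dashed lines at 2-fold. UGT and CES genes spread from below -1 to above 1, the points of the 19 GST genes stay between the dashed lines, and of the 5 points above the upper line, those of Ugt1a1, Ces2e and Mgst1 have intervals that reach across it.

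The ratios differed with abundance. With a mean of 100 CPM or more there were 15 members, all 15 with a log2 ratio below 0 and 6 of them lower by 2-fold or more. These signs are those of the TMM scale, since Gstm1 and Gstt2, 2 of the 15, reached 0.14 and 0.00344 with TPM. The abundance ranges were not recomputed under other scalings. Among all genes at that abundance, 80.4% had a ratio below 0, 4.24% were lower by 2-fold or more and 1.34% higher by 2-fold or more. The median was -0.90 for the 15 members and -0.30 for the 1919 other genes. Between 10 and 100 CPM, 17 members had a median of 0.01 and 7804 other genes -0.05. In that range 2 members (11.8%) were higher by 2-fold or more and 2 (11.8%) lower, against 4.79% and 0.999% of the other genes. Below 10 CPM, 16 members had a median of 0.09 and 5358 other genes 0.35. There 3 members (18.75%) were higher by 2-fold or more, against 21.4% of the other genes, and none (0) lower, against 1.66%, so the share of higher members was near that of other genes.

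**Figure D2:**
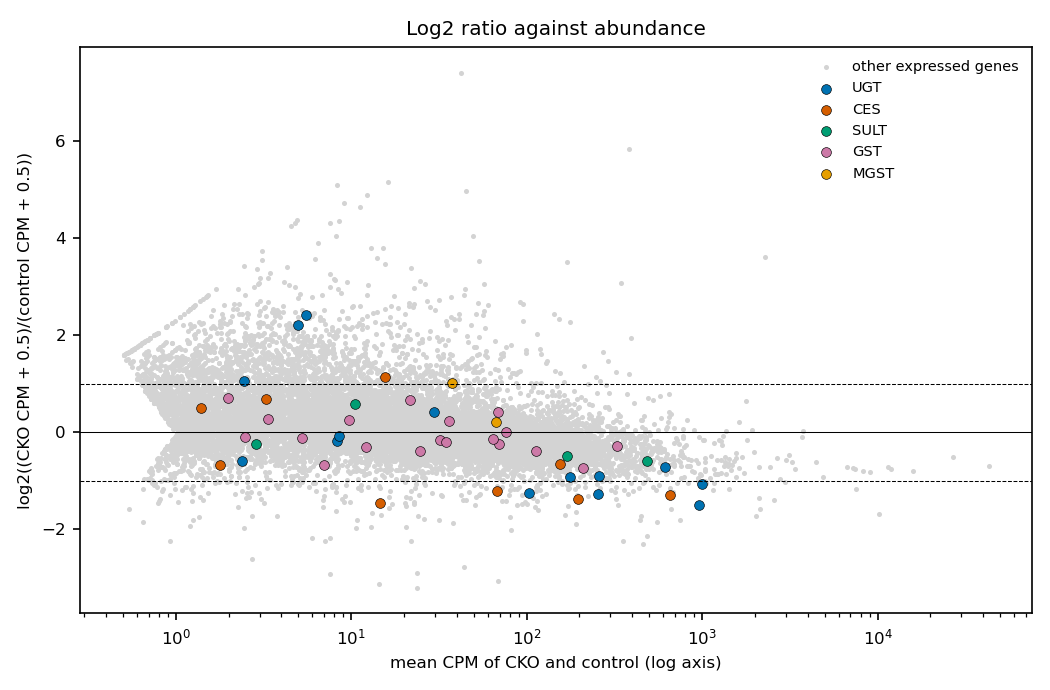
Log2 ratio of CPM + 0.5, CKO over control (vertical axis), against the mean CPM of both libraries (log axis) for the 48 expressed members, coloured by class, and for the other expressed genes in grey. On the TMM scale used here, the 15 members at 100 CPM or more lie below 0, and the 3 Ugt1a genes past 2-fold lie under 10 CPM.

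Per length, a few genes held most of the UGT, CES and SULT sums. Ugt2b38 had 261 FPKM in the CKO library and 595 FPKM in the control, where it was the most abundant of the 86 genes. Ugt3a2, at 289 FPKM in the CKO library and 483 FPKM in the control, was the most abundant in the CKO library. Together with Ugt1a7c these genes held 73.8% of the summed UGT FPKM in the CKO library and 77.0% in the control. Ces1f held 56.8% of the CES sum in the CKO library and 62.0% in the control, and Sult1d1 with Sult1c2 held 95.2% of the SULT sum in the CKO library and 97.9% in the control. GST levels were spread more widely, with Gstm1, Gstz1 and Gstp1 at 47.7% of the class sum in the CKO library and 54.0% in the control. FPKM are the authors' values and follow another scale than CPM, on which the median log2 ratio of all expressed genes was 0.28.

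**Figure D3:**
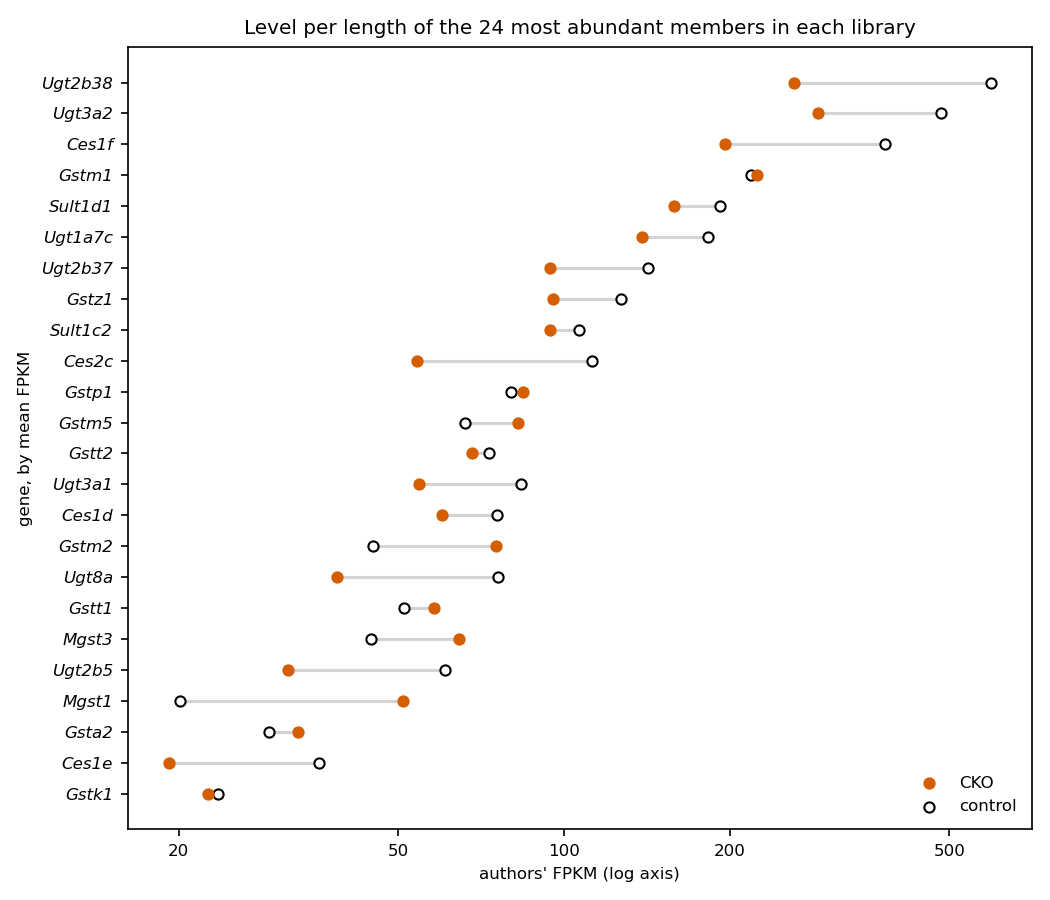
The authors' FPKM (log axis) of the 24 most abundant members by mean FPKM, with the CKO library in filled and the control library in open circles. Ugt2b38, Ugt3a2 and Ces1f lead in the control library, and Gstm1 lies above Ces1f in the CKO library, at 224 against 196 FPKM.

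The UGT genes as a class summed to 2202 CPM in the CKO library and 4664 CPM in the control, a log2 ratio of -1.08 that lay between -1.10 and -0.70 under the other scalings. Family 2, whose enzymes glucuronidate steroids and many drugs, had 10 genes in a tandem array on chromosome 5 (86889770 to 87490871, GRCm38). Ugt2b38 had 21459 reads (504 CPM, 497 to 511) in the CKO library and 42974 reads (1427 CPM, 1414 to 1441) in the control, 2.83-fold lower in CKO (2.79 to 2.88). Its log2 ratio, -1.501, was the lowest of the 48 members and held rank 55 from the bottom among the 15129 expressed genes. Ugt2b5 had 60.8 CPM in the CKO library and 146 CPM in the control, 2.40-fold lower (2.29 to 2.52). Ugt2b37 had 181 CPM in the CKO library and 338 CPM in the control, 1.87-fold lower (1.81 to 1.93), short of the limit. Ugt2b34, at the start of the array, had 34.1 CPM in the CKO library and 25.2 CPM in the control (ratio 1.35, 1.23 to 1.47), and its share of Ugt2 reads was 4.36% in the CKO library and 1.30% in the control. Ugt2a3 had 77 reads in the CKO library and 90 in the control, and 4 genes of the array, Ugt2a1, Ugt2a2, Ugt2b1 and Ugt2b36, had none (0).

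The coding sequences of Ugt2b38 and Ugt2b5 were 97.05% identical, so the split of reads between them is uncertain, and their sum was 565 CPM in the CKO library and 1573 CPM in the control (ratio 0.359, 0.353 to 0.365). The windows of 250 bases before the start of Ugt2b38, Ugt2b37 and Ugt2b5 are shown because these genes had log2 ratios of -1.501, -0.90 and -1.26 and their upstream sequences were alike (RefSeq, GRCm38.p6, minus strand). They lie at chr5:87424204-87424453 for Ugt2b38, chr5:87254789-87255038 for Ugt2b37 and chr5:87140341-87140590 for Ugt2b5. Capitals mark the 192 bases of each window that were identical in the pairwise alignments with both of the other windows.
Ugt2b38: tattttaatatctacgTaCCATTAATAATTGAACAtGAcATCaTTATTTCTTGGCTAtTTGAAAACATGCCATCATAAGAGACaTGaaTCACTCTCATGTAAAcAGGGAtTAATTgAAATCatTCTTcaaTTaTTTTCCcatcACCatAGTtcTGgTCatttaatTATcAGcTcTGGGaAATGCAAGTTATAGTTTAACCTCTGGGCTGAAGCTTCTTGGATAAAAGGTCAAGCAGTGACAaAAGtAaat
Ugt2b37: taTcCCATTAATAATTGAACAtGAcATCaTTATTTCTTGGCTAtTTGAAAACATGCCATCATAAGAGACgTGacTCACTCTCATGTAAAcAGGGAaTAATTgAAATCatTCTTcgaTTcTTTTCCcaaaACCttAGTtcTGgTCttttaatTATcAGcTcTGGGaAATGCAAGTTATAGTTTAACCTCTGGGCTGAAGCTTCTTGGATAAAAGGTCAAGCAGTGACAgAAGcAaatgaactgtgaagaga
Ugt2b5: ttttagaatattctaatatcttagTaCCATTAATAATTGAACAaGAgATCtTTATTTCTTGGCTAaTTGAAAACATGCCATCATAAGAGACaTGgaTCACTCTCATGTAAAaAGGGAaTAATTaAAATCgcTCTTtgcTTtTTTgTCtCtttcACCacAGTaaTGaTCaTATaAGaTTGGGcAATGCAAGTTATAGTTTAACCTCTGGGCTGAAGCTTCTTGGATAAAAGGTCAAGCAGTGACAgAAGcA
Over the aligned stretch, Ugt2b38 and Ugt2b37 were identical at 222 of 236 bases (94.1%), Ugt2b38 and Ugt2b5 at 212 of 247 (85.8%) and Ugt2b37 and Ugt2b5 at 198 of 233 (85.0%).

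Family 3 had both genes on chromosome 15 (9279822 to 9370955). Ugt3a2, whose human counterpart uses UDP-glucose and UDP-xylose in place of UDP-glucuronate, had 646 CPM (639 to 654) in the CKO library and 1344 CPM (1331 to 1357) in the control, 2.08-fold lower (2.05 to 2.11). Ugt3a1 had 122 CPM in the CKO library and 233 CPM in the control, 1.90-fold lower (1.83 to 1.97), and the pair was 93.3% identical in coding sequence. Ugt8a, the ceramide galactosyltransferase that makes galactosylceramide for myelin and for kidney sulfatides, had 149 CPM (146 to 153) in the CKO library and 363 CPM (356 to 370) in the control, 2.43-fold lower (2.36 to 2.51). It stands alone on chromosome 3 (125865272 to 125938682) and held 4.16% of the summed UGT FPKM in the CKO library and 4.63% in the control.

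The Ugt1a array on chromosome 1 (88055411 to 88220002) has 8 genes, each with its own first exon joined to exons that the 8 genes share. Between 50.3% and 60.6% of the annotated exon bases of these genes overlapped another Ugt1a gene, so the way reads were split between them is uncertain. Ugt1a7c held 92.3% of Ugt1a reads in the CKO library (91.9 to 92.7) and 97.1% in the control (96.9 to 97.4), and had 464 CPM in the CKO library and 763 CPM in the control, 1.64-fold lower (1.61 to 1.68). The other 7 genes together had 1646 reads in the CKO library and 675 in the control, a CPM ratio of 1.72 (1.58 to 1.89). Ugt1a2 had 408 reads in the CKO library and 42 in the control (6.87-fold higher, 4.99 to 9.68), and Ugt1a10 had 361 reads in the CKO library and 43 in the control (5.94-fold, 4.32 to 8.35), and it overlaps Gm38421. Ugt1a1, the bilirubin-conjugating enzyme, had 149 reads in the CKO library and 43 in the control (2.45-fold, 1.73 to 3.53). Ugt1a6a and Ugt1a6b, conjugators of small phenols with 98.4% identical coding sequences, summed to 686 reads in the CKO library and 530 in the control, a CPM ratio of 0.915 whose interval (0.816 to 1.03) includes 1. Over the array, reads summed to 503 CPM in the CKO library and 785 CPM in the control, a ratio of 0.640 (0.629 to 0.652).

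Carboxylesterases summed to 690 CPM in the CKO library and 1530 CPM in the control, with a log2 ratio of -1.15 that lay between -1.17 and -0.73 under the other scalings. Of 9 expressed CES genes, 4 (44.4%) were lower by 2-fold or more, against 1.66% of all expressed genes. Higher by 2-fold or more was 1 (11.1%), near the 10.3% of all expressed genes. On the Ces1 array of chromosome 8 (93020214 to 93535879, which includes Ces5a), Ces1f had 383 CPM (377 to 388) in the CKO library and 929 CPM (919 to 940) in the control, 2.43-fold lower (2.38 to 2.48). Its neighbour Ces1e had 40.4 CPM in the CKO library and 94.2 CPM in the control, 2.33-fold lower (2.19 to 2.47). Ces1d, a triacylglycerol hydrolase on the other side of Ces1e, had 120 CPM in the CKO library and 188 CPM in the control, 1.56-fold lower (1.504 to 1.623). Ces1g, which follows Ces1f, had 73 reads in the CKO library and 32 in the control (ratio 1.61, 1.05 to 2.53).

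The Ces2 genes share a second array on chromosome 8 (104734003 to 105150109) with Ces3a, Ces3b and Ces4a. Ces2c, an acylglycerol and acylcarnitine hydrolase, had 109 CPM (106 to 112) in the CKO library and 281 CPM (275 to 287) in the control, 2.59-fold lower (2.497 to 2.683). Ces2b had 7.61 CPM in the CKO library and 21.8 CPM in the control, 2.86-fold lower (2.499 to 3.276). The next member of the array, Ces2e, was higher, with 916 reads (21.5 CPM) in the CKO library and 286 reads (9.50 CPM) in the control, a ratio of 2.26 (1.98 to 2.60). Ces2e therefore held 14.9% of Ces2 reads in the CKO library (14.05 to 15.85) and 2.99% in the control (2.66 to 3.35), while Ces2c held 75.4% in the CKO library and 88.6% in the control. Coding sequences were 84.2% identical between Ces2e and Ces2c and 91.7% between Ces2b and Ces2c. Ces2g had 177 reads in the CKO library and 72 in the control (ratio 1.74, 1.31 to 2.32), and Ces2h 54 in the CKO library and 70 in the control (0.5455, 0.375 to 0.789).

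The windows of 250 bases before Ces2e (chr8:104926010-104926259) and Ces2c (chr8:104846818-104847067, both plus strand, RefSeq, GRCm38.p6) are shown because these neighbours went opposite ways. Capitals mark runs of 9 or more bases found at any position in the other window, of which there was 1.
Ces2e: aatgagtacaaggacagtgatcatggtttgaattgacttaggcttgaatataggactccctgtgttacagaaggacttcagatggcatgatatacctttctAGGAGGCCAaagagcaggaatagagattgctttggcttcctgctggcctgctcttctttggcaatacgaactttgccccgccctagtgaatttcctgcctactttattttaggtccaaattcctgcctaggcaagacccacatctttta
Ces2c: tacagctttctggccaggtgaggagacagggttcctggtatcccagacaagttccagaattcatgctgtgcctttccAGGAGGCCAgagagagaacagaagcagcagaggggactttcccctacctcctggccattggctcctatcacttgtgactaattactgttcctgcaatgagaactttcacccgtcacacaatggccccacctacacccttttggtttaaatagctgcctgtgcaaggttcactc
Aligned end to end with gaps counted, these windows were 57.3% identical. By that same measure Ugt2b37 and Ugt2b38 were 85.6% identical, Ugt2b38 and Ugt2b5 82.4% and Ugt2b37 and Ugt2b5 73.1%. Ces2e and Ces2g, both with ratios above 1, were 57.4% identical, and Ces2c and Ces2g, which went opposite ways, 59.4%. Against other families of its array, Ces2e was 50.9% identical to Ces3b and 50.7% to Ces4a. Whether upstream identity goes with the ratios was not tested.

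**Figure D4:**
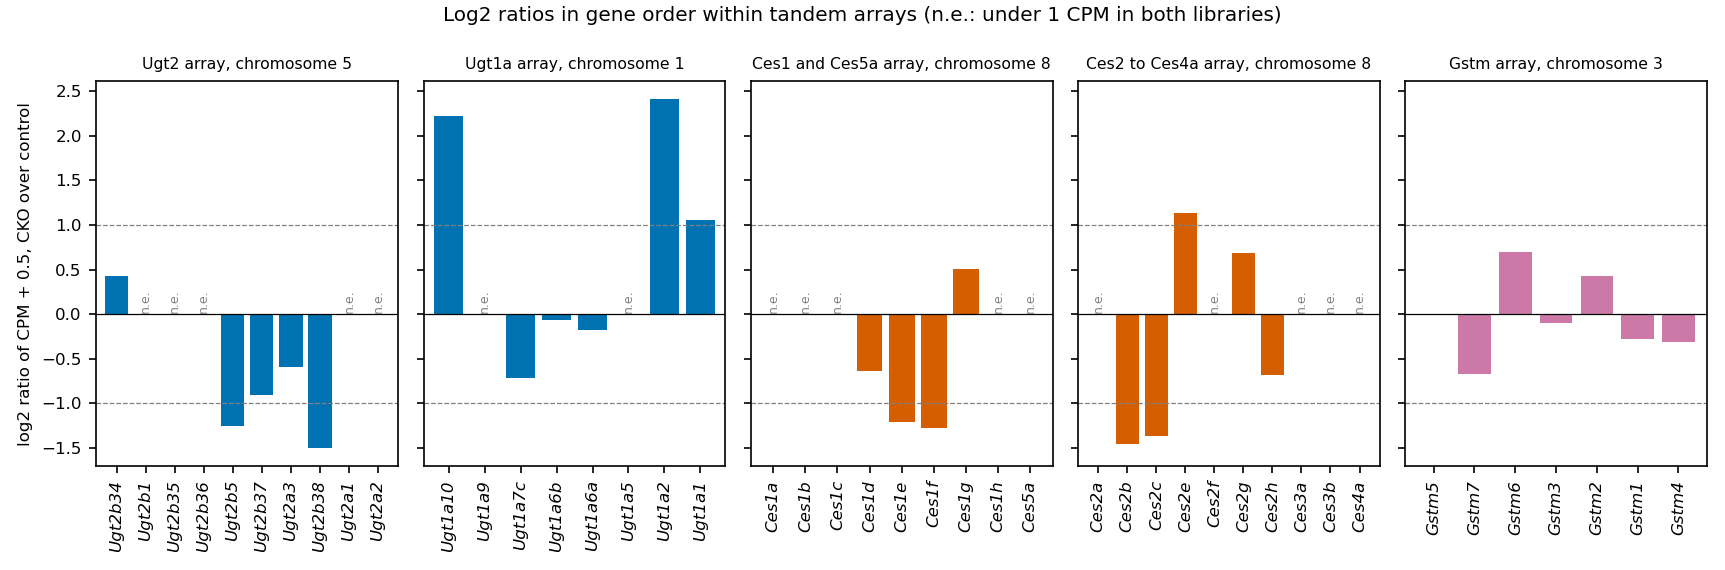
Log2 ratios of CPM + 0.5, CKO over control, as bars in gene order along 5 tandem arrays, with dashed lines at 2-fold. Members of 1 array went both ways, with Ces2b and Ces2c below -1 beside Ces2e above 1, and Ugt2b34 above 0 at the start of an array whose other expressed genes lie below 0.

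Among sulfotransferases, 4 of 21 genes were expressed, and none (0) was past 2-fold in either direction. With 10.3% of all expressed genes higher and 1.66% lower by this limit, 4 genes are too few to set against that share. Sult1d1, which sulfates catecholamines and other phenols, had 387 CPM (381 to 392) in the CKO library and 582 CPM (574 to 591) in the control, 1.51-fold lower (1.48 to 1.54). Sult1c2 had 140 CPM in the CKO library and 198 CPM in the control, 1.41-fold lower (1.36 to 1.46). Sult1a1, a phenol sulfotransferase, had 540 reads in the CKO library and 248 in the control (ratio 1.54, 1.32 to 1.80), and it overlaps Slx1b. Sult1b1, which sulfates thyroid hormones, had 110 reads in the CKO library and 94 in the control (ratio 0.827, 0.623 to 1.10). The class summed to 545 CPM in the CKO library and 792 CPM in the control, a log2 ratio of -0.54 that was nearest to 0 with TPM, at -0.09. The 8 steroid sulfotransferase genes of the Sult2a array on chromosome 7 had 6 reads in all in the CKO library, on Sult2a3, and 0 in the control, and the estrogen sulfotransferase gene Sult1e1 had none (0) in either.

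No glutathione S-transferase was past 2-fold, where 10.3% of all expressed genes were higher and 1.66% lower by this limit. Of 19 expressed GST genes, 12 had a log2 ratio below 0 and 7 above it, with a range of -0.72 to 0.70 and a median of -0.13, and the class summed to 1025 CPM in the CKO library and 1219 CPM in the control. That log2 ratio of -0.25 turned positive with total counts (0.07), FPKM (0.10) and TPM (0.21), so the class has no direction that held across scalings. Gstm1, the most abundant, had 298 CPM (293 to 303) in the CKO library and 360 CPM (353 to 367) in the control, 1.21-fold lower (1.18 to 1.24). Its log2 ratio of -0.27 turned positive with total counts (0.04), FPKM (0.03) and TPM (0.14), as did those of Gstp1 (0.07, 0.07 and 0.18) and Gsta2 (0.16, 0.17 and 0.28). Gsta2 was also above 0 without the 50 most abundant genes (0.04), and Gstk1 was above 0 with TPM (0.04), while Gstt2 reached 0.00344 with TPM. Gstz1, the maleylacetoacetate isomerase of tyrosine breakdown, had 158 CPM in the CKO library and 261 CPM in the control, a ratio of 0.605 (0.586 to 0.625), the lowest ratio of the class, and it overlaps Pomt2. Gsto1, which also reduces dehydroascorbate, had 26.7 CPM in the CKO library and 16.6 CPM in the control, 1.61-fold higher (1.45 to 1.79), and Gstm6 had 110 reads in the CKO library and 42 in the control, a ratio of 1.85 (1.29 to 2.71).

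Within the Gstm array of chromosome 3 (107895854 to 108045179), the 7 genes ran from -0.67 for Gstm7 to 0.70 for Gstm6. Gstm2 had 79.0 CPM in the CKO library and 58.8 CPM in the control (ratio 1.34, 1.27 to 1.43), and Gstm5 76.7 CPM in the CKO library and 76.3 CPM in the control (interval of the ratio 0.952 to 1.06). Near-identical copies limit other splits, since Gstp1 and Gstp2 were 98.1% and Gsta1 and Gsta2 97.6% identical in coding sequence. Gstp1 and Gstp2 summed to 68.8 CPM in the CKO library and 81.1 CPM in the control (ratio 0.849, 0.804 to 0.896), and Gsta1 and Gsta2 to 34.0 CPM in the CKO library and 36.8 CPM in the control (ratio 0.925). Gsta4, which clears the lipid aldehyde hydroxynonenal, had a ratio of 1.20 (1.03 to 1.40), and Gsta3 a ratio of 1.18 (1.09 to 1.28). Gstt1, Gstt2 and Gstt3 had log2 ratios of -0.13, -0.38 and -0.20, and Gstk1, found in mitochondria and peroxisomes, had -0.37.

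Mgst1, a membrane-bound transferase and peroxidase of the endoplasmic reticulum and the outer mitochondrial membrane, had 50.1 CPM (48.0 to 52.3) in the CKO library and 24.4 CPM (22.7 to 26.3) in the control, 2.05-fold higher (1.88 to 2.23). It held 44.2% of the summed MGST FPKM in the CKO library and 31.0% in the control. Mgst3 had 72.03 CPM in the CKO library and 62.1 CPM in the control, a ratio of 1.16 (1.09 to 1.23), and Mgst2, a leukotriene C4 synthase of many tissues, had no read. The 250 bases before Mgst1 (chr6:138140277-138140526, plus strand, RefSeq, GRCm38.p6) are shown because Mgst1 had the most reads of the 5 higher genes. Capitals mark a match to TGACNNNGC, the core of the antioxidant response element, on the minus strand.
Mgst1: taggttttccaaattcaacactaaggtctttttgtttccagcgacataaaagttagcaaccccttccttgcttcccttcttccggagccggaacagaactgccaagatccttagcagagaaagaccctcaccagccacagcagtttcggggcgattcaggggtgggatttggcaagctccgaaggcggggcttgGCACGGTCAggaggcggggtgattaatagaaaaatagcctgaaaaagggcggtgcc
This motif, searched on both strands, was in 10.2% of 32851 promoter windows of the same length and in windows of 4 members, Gsta3, Gstm5, Gstm7 and Mgst1, of the 74 members with a RefSeq window. Their log2 ratios ran from -0.67 for Gstm7 to 1.02 for Mgst1. GCGTG, the core of the xenobiotic response element, was in 28.2% of windows and in 12 of 87 member windows. The DR1 repeat of nuclear receptors, searched as exact letters on both strands, had no match in a member window, and was in 0.0335% of all windows.

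Of the 13 members with reads under 1 CPM, none (0) had more than 41 reads. Sult5a1 had 41 reads in the CKO library and 4 in the control, Sult2b1, a cholesterol sulfotransferase gene, 38 in the CKO library and 4 in the control, and Ces2f 37 in the CKO library and 8 in the control. Gstp3 had 30 reads in the CKO library and was listed at 0 in the control. Ces1b, Sult2a3 and Ugt2b35 were also listed at 0 in the control, with 15, 6 and 8 reads in the CKO library. Ces3a had 4 reads in the CKO library and 6 in the control.

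Genes that supply the cofactors did not share 1 direction. The counts past 2-fold in these lists stand beside 10.3% higher and 1.66% lower among all expressed genes. The glucuronate donor genes Ugdh, UDP-glucose dehydrogenase, and Ugp2, which makes UDP-glucose, had log2 ratios of -0.35 and -0.17. Of 9 genes in that list 2 were higher by 2-fold or more, the hexokinase gene Hk2 on 234 reads in the CKO library and 17 in the control (9.73-fold, 5.95 to 17.0) and the phosphoglucomutase gene Pgm1 (2.08-fold, 1.81 to 2.39), and none (0) was lower by 2-fold or more. For the sulfate donor, none (0) of 9 genes was past 2-fold, with Papss2 at -0.68, Papss1 at -0.62 and the basolateral sulfate exchanger gene Slc26a1 at -0.86, but the apical sulfate transporter gene Slc13a1 at 0.80. The expressed glutathione genes Gclc, Gclm, Gss and Gsr ran from -0.49 to -0.15. Ratios of these and the other supporting genes were computed on the TMM scale only. With total counts the median of all expressed genes moved from 0.01 to 0.32, so the sign of a small ratio depends on the scale.

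Genes listed as processing glutathione conjugates or as deconjugating went both ways. Among 17 genes that process glutathione conjugates, 1 was lower by 2-fold or more and none (0) higher, against 1.66% and 10.3% of all expressed genes. This was Acy3, an aminoacylase of mercapturates and an S3 segment marker, at 1198 CPM in the CKO library and 3038 CPM in the control (2.54-fold lower, 2.51 to 2.56). Ggt1, the gamma-glutamyltransferase of the brush border, was 1.99-fold lower (1.96 to 2.02) with a log2 ratio of -0.99, and the Nat8 family gene Nat8f4 had a ratio of 1.88 (1.57 to 2.26). Of the 17 genes, 13 had a log2 ratio below 0, and the median was -0.55. Of 6 genes listed as deconjugating, 2 were lower by 2-fold or more, the lysosomal beta-glucuronidase gene Gusb, a known androgen-induced gene of mouse kidney, at 81.0 CPM in the CKO library and 302.8 CPM in the control (3.74-fold, 3.59 to 3.89), and the sulfatase gene Arsg (2.14-fold, 1.98 to 2.32). The other 4 were within 2-fold, with the sulfatase genes Sulf2 at a ratio of 1.98 (1.82 to 2.16), Arsa at 1.78 (1.56 to 2.03), Sulf1 at 1.45 (1.15 to 1.84) and Arsb at 0.726 (0.705 to 0.748), and the median log2 ratio of the 6 was 0.01. The listed gene Sts was absent from the counted genes under that symbol. Whether the sulfatases given here cleave the products of SULT enzymes was not tested.

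Of 19 other conjugating and hydrolysing genes, 6 were higher by 2-fold or more and 1 was lower by 2-fold or more, against 10.3% and 1.66% of all expressed genes. Of these 19, 2 reached 1 CPM in the CKO library only. Ephx1, the microsomal epoxide hydrolase, was 3.12-fold higher (2.89 to 3.38) and the soluble epoxide hydrolase gene Ephx2 2.30-fold lower (2.25 to 2.36). Hpgds, a prostaglandin D synthase and member of the sigma class of glutathione transferases, was 5.43-fold higher (3.79 to 8.01), Alox5ap, the 5-lipoxygenase activating protein gene, 4.81-fold (3.27 to 7.31) and the carbonyl reductase gene Cbr3 3.79-fold (2.24 to 6.78). These are low counts, with 261, 204 and 91 reads in the CKO library and 34, 30 and 17 in the control. Hpgds and Alox5ap are expressed in leukocytes, and 13 of 14 macrophage markers were higher by 2-fold or more, with a summed level of 402 CPM in the CKO library and 83.0 CPM in the control and with Ms4a7 at 0 in the control. The part of macrophages in these ratios was not tested.

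Of 17 expressed regulators of conjugation genes, Hnf4a, a nuclear receptor that drives many hepatic and proximal tubule genes, which the list of proximal tubule markers also holds, was lower by 2.06-fold (2.03 to 2.10), and none (0) was higher by 2-fold or more. Of the 17, 11 had a log2 ratio below 0 and 6 above it, with a median of -0.13. Among those above 0, the xenobiotic sensor genes Nr1i2 and Ahr had log2 ratios of 0.64 and 0.48, and the NRF2 gene Nfe2l2 had 0.36. Nqo1, an NRF2 target, had 0.14.

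Proximal tubule markers and male-biased genes were lower along with the abundant members, while the marker lists of other cells had median log2 ratios from 0.02 (endothelial) to 2.51 (macrophage). All 28 proximal tubule markers were expressed, of which 26 had a log2 ratio below 0 and 5 were lower by 2-fold or more, with a median of -0.57 and a summed level of 35170 CPM in the CKO library and 67338 CPM in the control. Markers of the S3 segment had 5 of 10 lower by 2-fold or more and a median of -1.003, with a sum of 4805 CPM in the CKO library and 9833 CPM in the control. Genes known for higher expression in male than in female kidney had 12 of 13 lower by 2-fold or more and a median of -1.49, with a sum of 8599 CPM in the CKO library and 25965 CPM in the control. The median of the 15 abundant members, -0.90, lay between those of the proximal tubule and S3 lists. That of all 48 members, -0.22, lay above both lists, and that of other genes at 100 CPM or more was -0.30. Female-biased genes had 4 of 9 higher by 2-fold or more and 2 lower. Of all expressed genes, 10.3% were higher and 1.66% lower by this limit.

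Tubular injury genes had 18 of 20 higher by 2-fold or more and a sum of 5906 CPM in the CKO library and 719 CPM in the control, with Timp1 at 0 in the control. Fibroblast markers had 8 of 10 higher by 2-fold or more, with sums of 1223 CPM in the CKO library and 409 CPM in the control. T and NK cell markers had 5 of 7 expressed genes higher by 2-fold or more, with sums of 15.7 CPM in the CKO library and 4.75 CPM in the control and with Cd3d at 0 in the control. Of these 7, 5 reached 1 CPM in the CKO library only, and 3 further markers stayed under it in both. The minimum thus favoured higher genes in this list, and 5 of 7 is no independent count. Distal nephron and collecting duct markers had 1 of 15 higher by 2-fold or more, against 10.3% of all expressed genes, and a median of 0.30. Of 10 endothelial markers none (0) was past 2-fold. The part of cell composition, injury and sex in the ratios of the conjugation genes was not tested.

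**Figure D5:**
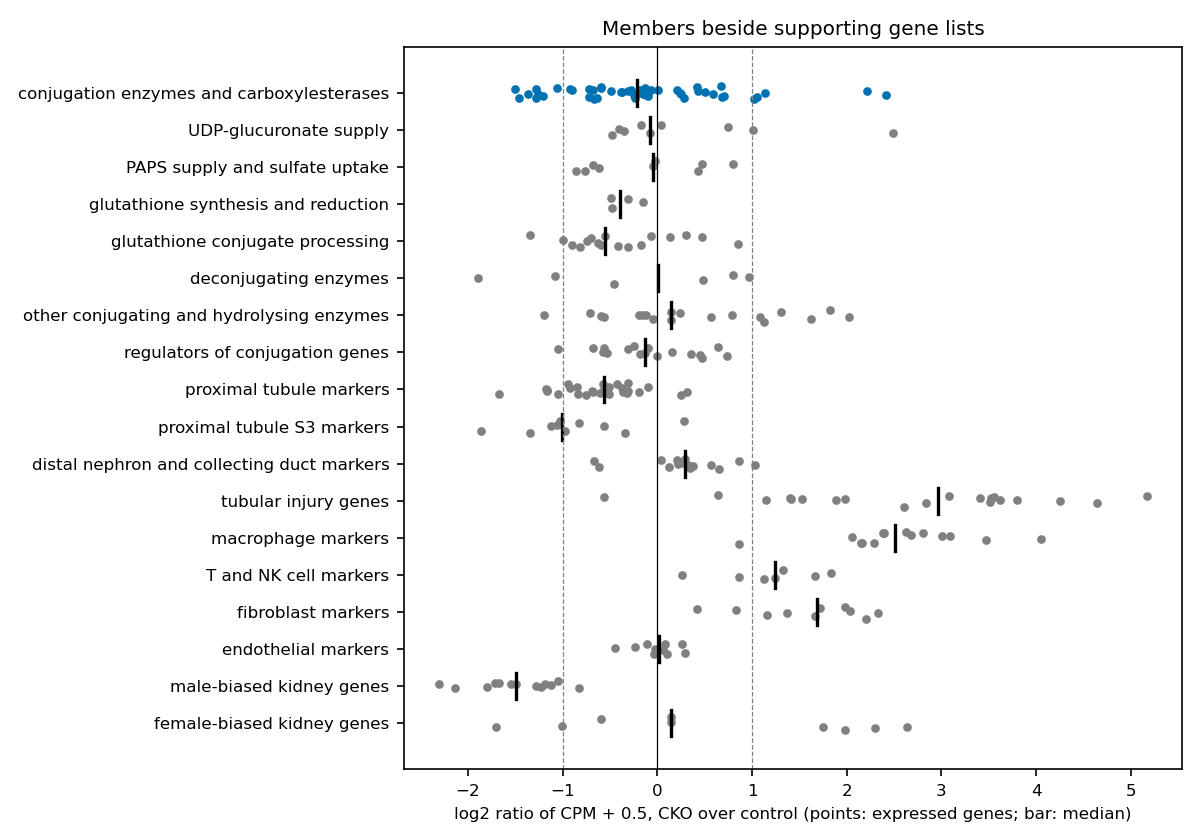
Log2 ratios of CPM + 0.5, CKO over control, of the 48 expressed members (top row, blue) and of the expressed genes of 17 supporting lists (grey), with a bar at each median and dashed lines at 2-fold. The members span -1.501 to 2.41, the male-biased list has a median of -1.49 and the tubular injury list a median of 2.96.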

How the data were processed

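Each group had 1 RNA-seq library from whole kidney, made with a stranded mRNA kit per the labels' protocols. Per the submitters' processing notes, mm10 and the tools edgeR, DESeq2, FastQC, Cufflinks 2.2.1, HTSeq and STAR 2.7.3a were involved, with no roles given, and whether strand was used in counting is not given in the sources used here. The deposited read counts per gene are whole numbers and were not normalized. The deposited FPKM values are scaled by length and depth, and the deposited TPM values by length to a near-constant total, per the file headers.

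From the counts, edgeR 4.0.16 (R 4.3.3) computed TMM factors on all genes having reads (1.12 for CKO and 0.896 for control), and CPM from the effective sizes of 42.6 and 30.1 (in Mreads). Ratios carry exact Clopper-Pearson intervals and levels exact Poisson intervals, both at 95%, which cover counting error only. Ratios, lists and figures were computed in Python 3.11.15 with pandas 2.3.3, scipy 1.17.1 and Biopython 1.88, and DESeq2 1.42.0 gave alternative size factors. The steps were tested on simulated counts. Positions were matched by NCBI ID in RefSeq GRCm38.p6, the assembly of mm10, for 86 of 86 members. Shared exons and coding sequences came from GENCODE M21. Coding sequences were compared in place of proteins, which were planned.

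Named members are those past 2-fold and the most abundant of each family by FPKM, with further members given as values. The members, lists and rules were chosen with earlier results of these data known. The alternatives were total counts, the same leaving out the 50 most abundant genes, FPKM, TPM, DESeq2 size factors, pseudocounts of 0.1 and 2 CPM, no minimum, a minimum of 10 CPM, a 1.5-fold limit, a counting interval past 1 and leaving out members with shared exons. A minimum on the mean was chosen after seeing the data. Some regulators and a motif are not reported here.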

Additional observations from a re-analysis of the deposited data

How the results depend on the processing

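With 1 library per group there was no replicate to leave out. No paired analysis was possible because each group has 1 library. The 13 members past 2-fold kept their direction under the 7 scaling, unit and pseudocount alternatives, but this is no check of them. A pseudocount cannot turn a direction. The scalings and units moved the median of all expressed genes to 0.40 at most, with TPM, short of the log2 ratio of 1 that selected these members. With DESeq2 size factors or a pseudocount of 0.1 CPM, 13 of 13 stayed past 2-fold. Total counts left 8 of 13 past the limit, without the 50 most abundant genes 12, TPM 7, FPKM 7 and a pseudocount of 2 CPM 11. Ces1e, Ces1f, Ugt2b5, Ugt3a2 and Ugt8a fell short with total counts, TPM and FPKM.

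The count of members lower by 2-fold or more was 8 in the main result. It was 3 of 49 with total counts, 2 of 48 with TPM and 3 of 48 with FPKM. Of all expressed genes, 0.670% were lower with total counts, 0.575% with TPM and 0.601% with FPKM, against 1.66% in the main result. At a 1.5-fold limit 17 members were lower, where 6.85% of all expressed genes were lower. The count higher by 2-fold or more was 5 in the main result (10.3% of all expressed genes, a share given likewise in the next brackets). It was 9 with total counts without the 50 most abundant genes (14.6%), 9 with TPM (16.0%) and 9 at 1.5-fold (19.3%). It was 8 with no minimum (7.43%), 3 with a pseudocount of 2 CPM (5.45%) and 2 with a minimum of 10 CPM (5.62%). Without members with shared exons, which removes the Ugt1a genes, it was 2 (10.2%). Of members past 2-fold, 38.5% were higher in the main result, 66.7% with total counts, 56.2% without the 50 most abundant genes, 81.8% with TPM and 57.1% with FPKM. Past 2-fold among all expressed genes, 1552 were higher and 251 lower in the main result. These counts were 2391 and 102 with total counts, and 2312 and 158 without the 50 most abundant genes. They were 2416 and 87 with TPM and 1523 and 91 with FPKM, so higher genes far outnumbered lower ones throughout. The median of -0.22 turned to 0.11 with total counts, 0.0503 without the 50 most abundant genes, 0.20 with TPM and 0.0884 with FPKM, where the medians of all expressed genes were 0.32, 0.21, 0.40 and 0.28, and stayed 0.16 to 0.21 below them. It was -0.0940 with no minimum and -0.37 with a minimum of 10 CPM. The requirement of a counting interval past 1 left the counts at 5 and 8. It also left all expressed genes at 1552 higher and 251 lower, so it removed no gene and is no check of the members. The minimum on the mean left 5 and 8 as well, with all expressed genes at 1363 higher and 234 lower. Depth limits the 13 members under 1 CPM and the minor Ugt1a genes.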
